A study of Mus musculus with 6 samples.

Results

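The regions described here are 200-bp windows of open chromatin that lie between genes at a moderate distance. Each has its centre outside every protein-coding gene body and over 1 kb and up to 50 kb from the nearest end (start or 3′ end) of a protein-coding gene, on mouse build mm10 (GRCm38). This rule used positions only and no measured value. It took 13224 of the 55056 windows in the deposited count table (24.0%), against 10273 within 1 kb of a gene end (18.7%), 20749 deeper inside a gene body (37.7%) and 10751 over 50 kb from any gene (19.5%). The other 59 lay on contigs with no protein-coding gene. The chosen windows are called intergenic windows below. They had 7750 protein-coding genes as nearest gene, with a median of 1 window per gene and at most 8, at a median distance of 13749 bp.

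The windows were measured by ATAC-seq, an assay that uses the enzyme Tn5 to cut and tag accessible DNA, on bulk cells of small intestinal organoids. All 6 libraries came from 1 organoid line, line26, grown from a single female Lgr5GFPDTR/+ mouse, which carries a reporter and a diphtheria toxin receptor at the stem cell gene Lgr5. In 3 libraries the organoids had received CHIR99021 at 3 µM and valproic acid at 1.5 mM in ENR medium (EGF, Noggin and R-spondin 1) over 3 days, then ENR alone for 1 day, then the cytokine RANKL at 100 ng/ml for 6 days. The 3 control libraries came from organoids in ENR medium for 6 days, and their names begin with CVENR, a prefix that the labels do not explain. Whether they too had received CHIR99021 and valproic acid is not given in the sources used here, so RANKL and those compounds may not be separable. Per the labels, the replicates were 3 separate differentiation experiments on that line, so the spread between them holds no variation between animals.

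RANKL is the ligand that drives epithelial cells over gut lymphoid follicles to become M cells, which pass particles from the gut lumen to immune cells. It binds RANK, encoded by Tnfrsf11a, and signals through TRAF adaptors to NF-kB. Accessible DNA between genes often contains enhancers, which bind transcription factors and act on promoters at a distance, and it is as a rule more cell-type specific than accessible DNA at promoters. The nearest gene is used below as a label for a window's place and need not be the gene the window acts on.

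Some of these windows held the promoter of a non-coding gene, and for those the RefSeq promoter sequence shows what DNA was opened or closed. Of the 13224 intergenic windows, 276 overlapped at least 1 of 305 RefSeq promoters (GRCm38.p6, 300 bases around the start), all of non-coding genes. The 4 with the smallest adjusted p among called windows that share at least 100 bases with a promoter are shown, 5′ to 3′ on the gene's strand, with the bases inside the 200-bp window in capitals. Those of 4930461G14Rik (chr9:58454923-58455222, plus strand) and Gm32861 (chr7:110288349-110288648, minus strand) rose. That of 9330159M07Rik (chr9:88858821-88859120, minus strand) fell. That of Mir22hg, the host transcript of the microRNA miR-22 (chr11:75461289-75461588, plus strand), rose.
4930461G14Rik: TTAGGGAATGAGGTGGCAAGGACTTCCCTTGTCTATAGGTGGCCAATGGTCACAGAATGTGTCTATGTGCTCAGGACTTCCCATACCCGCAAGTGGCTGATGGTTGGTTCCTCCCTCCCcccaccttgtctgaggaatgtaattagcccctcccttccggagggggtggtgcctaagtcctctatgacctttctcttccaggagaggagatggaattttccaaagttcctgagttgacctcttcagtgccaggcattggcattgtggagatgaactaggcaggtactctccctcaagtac
Gm32861: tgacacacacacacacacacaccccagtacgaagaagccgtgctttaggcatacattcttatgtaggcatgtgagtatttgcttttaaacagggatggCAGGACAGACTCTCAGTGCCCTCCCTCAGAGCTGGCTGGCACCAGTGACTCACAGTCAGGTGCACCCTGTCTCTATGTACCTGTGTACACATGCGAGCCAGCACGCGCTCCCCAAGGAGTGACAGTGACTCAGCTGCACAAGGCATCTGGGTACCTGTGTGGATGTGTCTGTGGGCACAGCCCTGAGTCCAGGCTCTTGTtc
9330159M07Rik: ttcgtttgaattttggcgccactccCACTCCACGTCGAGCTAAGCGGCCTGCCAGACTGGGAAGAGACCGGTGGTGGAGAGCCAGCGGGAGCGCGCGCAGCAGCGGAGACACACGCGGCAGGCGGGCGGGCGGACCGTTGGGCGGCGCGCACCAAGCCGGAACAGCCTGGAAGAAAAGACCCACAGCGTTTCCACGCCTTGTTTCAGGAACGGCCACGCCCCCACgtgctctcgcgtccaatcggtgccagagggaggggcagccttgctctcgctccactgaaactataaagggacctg
Mir22hg: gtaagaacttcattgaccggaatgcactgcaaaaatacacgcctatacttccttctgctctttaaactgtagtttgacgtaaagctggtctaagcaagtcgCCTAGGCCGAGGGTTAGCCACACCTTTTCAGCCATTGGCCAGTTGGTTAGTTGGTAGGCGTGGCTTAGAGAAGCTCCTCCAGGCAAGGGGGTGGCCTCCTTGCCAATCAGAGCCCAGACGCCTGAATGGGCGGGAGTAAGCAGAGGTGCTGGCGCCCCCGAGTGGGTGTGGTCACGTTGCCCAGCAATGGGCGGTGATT

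Values are CPM, a library's window counts scaled to a common total, and tests are edgeR's quasi-likelihood test with Benjamini-Hochberg adjustment over all 21618 windows that passed its filter on low counts. The window at the 4930461G14Rik promoter, 33662 bp before the start of Insyn1, stood at 5.44, 8.0 and 6.43 CPM in the control libraries and at 27.8, 39.5 and 27.3 CPM with RANKL (log2 fold change 2.19 ± 0.49 SE, adjusted p = 0.000138). The window at the Gm32861 promoter, 4944 bp beyond the 3′ end of Swap70, stood at 20.7, 12.0 and 12.9 CPM against 49.4, 37.3 and 43.5 CPM with RANKL (log2 fold change 1.46 ± 0.35, adjusted p = 0.000566). The window at the 9330159M07Rik promoter fell from 68.5, 83.0 and 105 CPM to 43.2, 43.9 and 44.7 CPM (log2 fold change -0.90 ± 0.21, adjusted p = 0.000433). At the Mir22hg promoter the values were 64.2, 44.0 and 57.8 CPM in control and 92.6, 103 and 89.5 CPM with RANKL (log2 fold change 0.79 ± 0.19, adjusted p = 0.000664), and leaving out control replicate 2 took the adjusted p to 0.0528. The groups did not overlap in these 4 windows, which were chosen for their small adjusted p, so this is a description. Of the 164 tested windows that overlapped such a promoter, 9 were called higher and 9 lower (11.0%), against 20.1% of all tested windows called in either direction.

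Short motifs were searched on both strands of these promoters. The AP-1 motif TGANTCA occurred in Gm32861, as TGACTCA at bases 144 to 150 and again at bases 224 to 230, both inside the window. It was present in 39 of the 305 overlapped promoters (12.8%), in 9.31% of all 11588 non-coding promoters in the table and in 7.81% of all 32851 promoters. The Ets motif CCGGAAG occurred in 4930461G14Rik as its reverse complement CTTCCGG, at bases 154 to 160 and outside the window. It was found in 8.20% of the overlapped promoters, 3.89% of the non-coding ones and 8.86% of all. The HNF4 motif CANAGTCCA was in none of the printed promoters and in 1.64%, 1.90% and 1.69% of those groups.

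The 6 libraries held 322173 to 976881 window counts, so that 3 counts were worth 3.00 to 9.26 CPM, and RANKL replicate 1 was the shallowest. Epithelial identity genes had 30 intergenic windows, with 608 to 697 CPM summed per library. Immune cell markers had 4 such windows with 42.4 to 59.6 CPM in all. These sums depend on the number of windows in a list and are not levels per window. The corresponding sums were 141 to 206 CPM over 15 windows of mesenchymal markers, 199 to 287 CPM over 21 windows of endothelial markers and 174 to 225 CPM over 17 windows of neural and glial markers. Only 2 immune and 5 endothelial windows passed the filter on low counts, and edgeR and DESeq2 called none of them. At an unadjusted p under 0.05, 0 of the 2 and 1 of the 5 passed. Without that filter edgeR called 2 of the 21 endothelial windows higher and none of the 4 immune ones, of which 1 had an unadjusted p under 0.05.

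Intergenic windows were less accessible than windows at gene ends and about as accessible as those inside genes. Their median CPM was 9.67 in control and 9.83 with RANKL libraries (each window averaged over its group), against 30.5 and 34.4 CPM for windows within 1 kb of a gene end. The medians were 9.43 and 9.94 CPM inside genes, 5.6 and 7.73 CPM beyond 50 kb, and 10.5 and 11.0 CPM over all windows. The filter on low counts kept 4320 of the 13224 (32.7%), against 79.6% at gene ends, 33.1% inside genes and 20.7% beyond 50 kb. The filter keeps a window that is well covered in only 1 group, so the tested windows are not a sample of all of them. In bulk chromatin, fewer cells with a window open and less accessibility per cell cannot be told apart.

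Intergenic windows differed between RANKL and control organoids in both directions. Of 4320 tested, 439 were called higher (10.2%) and 541 lower (12.5%), and 1428 had an unadjusted p under 0.05. Over all tested windows 20.1% were called, 10.0% higher and 10.0% lower, so the intergenic share of 22.7% lay close to that background. Windows within 1 kb of a gene end were called in 12.2%, with 755 higher and 239 lower, those inside genes in 21.8%, and those beyond 50 kb in 38.3%. The called rises had a median of 3.61-fold, against 1.79-fold at gene ends and 2.45-fold over all windows. Inside genes this median was 3.01-fold and beyond 50 kb 6.18-fold. The called falls had a median of 2.45-fold, against 2.39-fold over all windows. Which direction had more calls depended on the test: DESeq2 called 321 higher and 261 lower, and a fit with no filter called 720 and 491. Higher calls also outnumbered lower ones without control replicate 1 (51.3% of calls), control replicate 3 (50.7%), RANKL replicate 1 (52.8%) or RANKL replicate 2 (50.4%), against 44.8% with all libraries.

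The shares called differed between the weakest and the strongest intergenic windows. Windows were placed in 4 strength groups by their mean log2 CPM over all libraries, with limits at 4.52, 4.98 and 5.55 that cut all tested windows into equal parts. That mean includes both groups, and a window of low mean can pass the filter through the group where it is high. The shares by strength are therefore a description. In the weakest group 16.1% of 1534 intergenic windows were called higher and 7.76% lower. In the strongest group 4.54% of 551 were called higher and 21.6% lower. At gene ends the share called lower stayed between 2.49% and 3.30% in all 4 groups. The median called rise was 6.27-fold in the weakest intergenic group and 1.68-fold in the strongest, against 3.16-fold and 1.6-fold at gene ends. With loess offsets, which remove a trend with abundance within each library, the share called higher in the weakest intergenic group was 9.39% and the share called lower there 9.58%, whereas the strongest group had 4.54% and 23.4%. DESeq2 called 13.1% higher and 3.32% lower in the weakest group, and 2.36% and 11.3% in the strongest. In the weakest group, the fits that left out a library called 13.0% to 28.3% higher. The highest shares were 28.3% of 642 windows without control replicate 1 and 24.4% of 655 without control replicate 2, where fewer windows passed the filter. In the strongest group these fits called 2.54% (without RANKL replicate 2) to 4.54% higher and 14.2% (without RANKL replicate 3) to 19.4% lower. Counts over 2 kb, introduced below, gave 43.4% lower in the strongest group and 9.32% in the weakest. With all libraries thinned to the smallest total only 20 windows of the weakest group were tested.

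**Figure D1:**
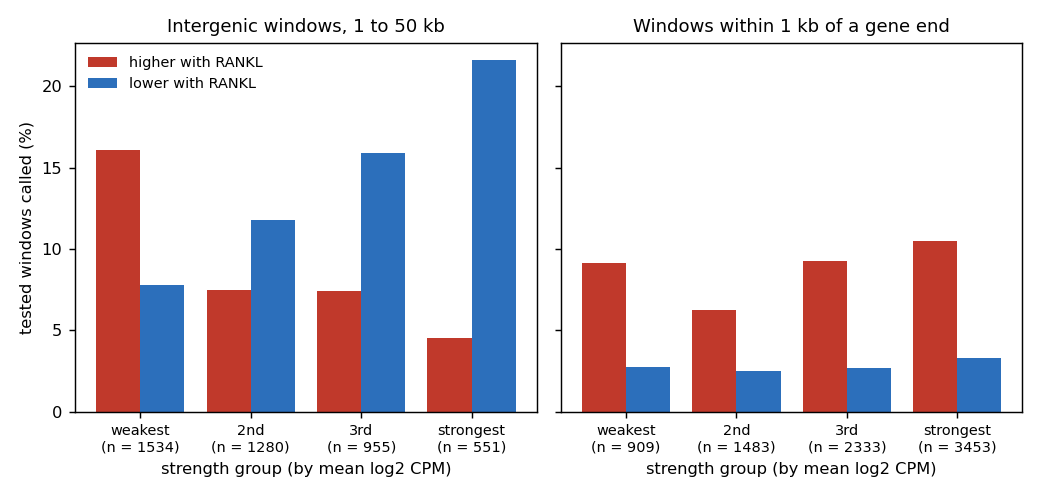
Share of tested windows called higher (red) or lower (blue) with RANKL, in percent, by strength group (mean log2 CPM), for intergenic windows 1 to 50 kb from a gene (left) and windows within 1 kb of a gene end (right); n is the number tested. The blue bars climb from 7.76% to 21.6% on the left and stay between 2.49% and 3.30% on the right.

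The share that fell was greater farther from genes. It was 9.36% at 1 to 2 kb, 9.65% at 2 to 5 kb, 10.9% at 5 to 10 kb, 12.3% at 10 to 20 kb, 13.9% at 20 to 30 kb, 14.9% at 30 to 40 kb and 19.2% at 40 to 50 kb. The share that rose showed no such order and lay between 9.01% and 12.0%. Grouped more broadly, 10.2% of 1734 windows at 1 to 10 kb and 16.6% of 817 at 30 to 50 kb were called lower. In the 6 fits that each left out a library, these shares were 6.56% to 9.70% near and 9.58% to 15.3% far, and the far share was the greater in each. DESeq2 gave 5.19% and 8.08%. At the limits of the rule, 19.7% of the 127 tested windows just inside 1 kb (1 to 1.5 kb) and 12.8% of the 203 just outside it (0.5 to 1 kb) were called. Just inside 50 kb (45 to 50 kb) 27.5% of 160 were called, and 31.7% of 139 just outside it (50 to 55 kb).

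**Figure D2:**
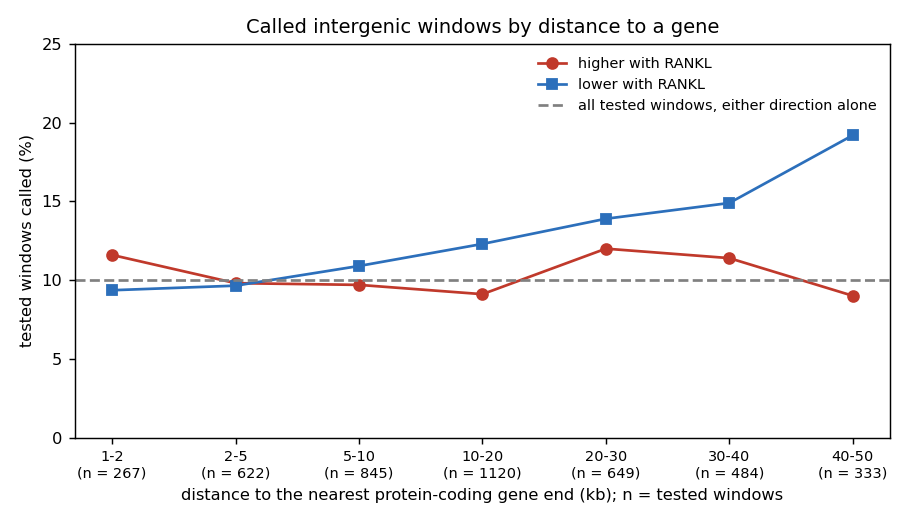
Share of tested intergenic windows called higher (red circles) or lower (blue squares) with RANKL, in percent, by distance to the nearest protein-coding gene end in kb; the dashed line is the 10.0% of all tested windows called in each direction. The blue line rises from 9.36% to 19.2%, while the red line stays between 9.01% and 12.0%.

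In the RANKL libraries a smaller part of the reads around intergenic windows lay at the centre. A second deposited table gave 2-kb windows around the same centres, from which whole counts were recovered. The central 200 bp held 42.8%, 41.7% and 41.6% of the 2-kb counts of intergenic windows in the control libraries, and 35.5%, 32.7% and 35.4% with RANKL. Every RANKL library was below every control library (42.1% ± 0.686 against 34.5% ± 1.61, SD, n = 3 each, exact two-sided permutation p = 0.1, the smallest that 3 against 3 allows). Windows inside genes (41.2% against 34.2%) and beyond 50 kb (41.0% against 32.3%) had a gap of like size. At gene ends the shares were 38.9% ± 0.377 and 38.2% ± 1.22 (exact p = 0.4), and the groups overlapped. Intergenic windows that were tested and not called also lay lower with RANKL, at 39.5% against 44.2%, and those called lower went from 46.4% to 34.3%. Those called higher went the other way, from 37.9% to 44.3%; these calls use the central counts themselves, so the values by call are a description.

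**Figure D3:**
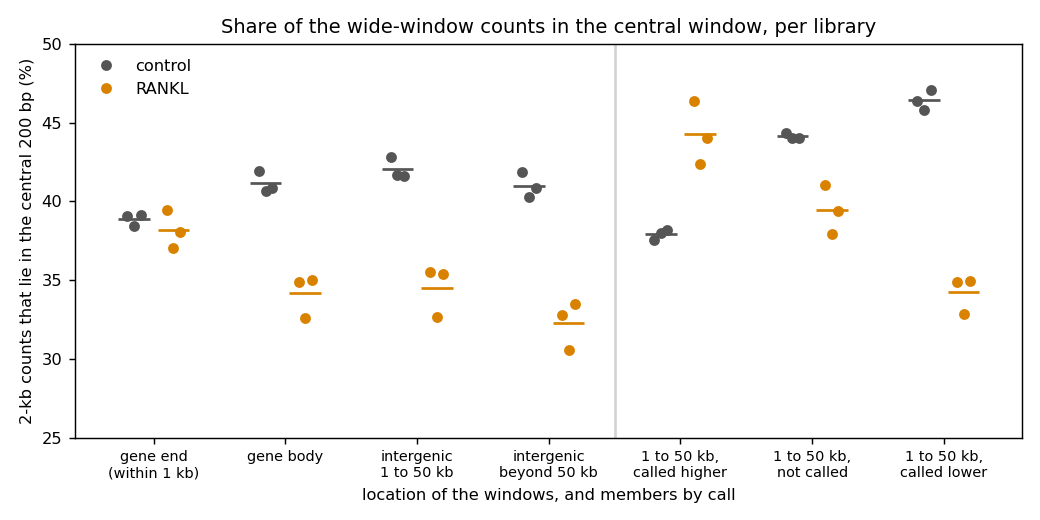
Percent of the counts in 2-kb windows that lie in the central 200 bp, for each control (grey) and RANKL (orange) library, with bars at group means; on the left by location, on the right for intergenic windows 1 to 50 kb from a gene by their call. The RANKL libraries lie below all controls except at gene ends, where they overlap, and in windows called higher, where they lie above.

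The width of the window therefore bears on the amount measured between genes. Intergenic windows took 19.84%, 19.22% and 18.55% of the 200-bp counts in control libraries and 17.89%, 18.32% and 18.42% with RANKL, a difference of -0.994 percentage points (exact two-sided permutation p = 0.1, the smallest possible). In the 2-kb counts the shares were 18.97%, 18.38% and 17.94% in control and 18.36%, 19.02% and 18.72% with RANKL, a difference of 0.271 points in the other direction (exact p = 0.5). Windows inside genes likewise had differences of -0.981 points in 200-bp counts and 0.727 points in 2-kb counts. Beyond 50 kb these were -0.123 and 1.19 points, and at gene ends 2.03 and -2.25 points. In the 2-kb counts 992 of 12043 tested intergenic windows were called higher (8.24%) and 1087 lower (9.03%), against 8.39% and 10.2% over all 2-kb windows. Of the 439 called higher in 200 bp, 330 were also called higher in 2 kb and 437 had the same sign. Of the 541 called lower, 491 were also called lower and all 541 had the same sign. The median log2 fold change went from 1.85 to 1.30 for the rises and from -1.29 to -1.10 for the falls.

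The side of the gene was known for 10244 of the 13224 windows, from the strand of RefSeq promoters. Of 1782 tested windows before a start, 8.64% were called higher and 13.4% lower. Of 1546 beyond a 3′ end, 11.7% rose and 10.7% fell. Of 590 tested windows within 1 kb of the end of a non-coding gene or pseudogene, 6.10% were called higher and 8.14% lower. Of 3156 outside every annotated gene the shares were 10.9% and 13.6%, and neither of these differences between kinds of place was tested. Next to olfactory and vomeronasal receptor genes lay 367 windows, of which 46 were tested. Of these 4 rose (8.70%) and 18 fell (39.1%), against 10.0% in each direction over all tested windows. Over all 367, tested or not, the median CPM was 3.94 in control and 7.49 with RANKL. That is the opposite direction to most calls among the 46, which therefore do not stand for the rest.

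The largest rises were at windows that were almost closed in control organoids. They were chosen as the 8 greatest fold changes among called windows of at least median strength whose groups did not overlap. That choice favours windows that are low in control. The window at chr12:119239903-119240102, 1726 bp before the start of Itgb8, held 0, 1.0 and 0 CPM in control and 52.5, 54.9 and 62.1 CPM with RANKL. Itgb8 encodes integrin β8, which pairs with integrin αv and activates TGF-β. With 1 count over the controls and 92 with RANKL, the ratio of pooled counts was 139 (exact 95% counting interval 24.3 to 5530; edgeR adjusted p = 1.53e-21). The window 13564 bp before the start of Gjb5, a connexin of gap junctions (chr4:127371629-127371828), went from 3.26, 4.0 and 0 CPM to 46.3, 63.7 and 62.1 CPM (log2 fold change 4.24 ± 0.46). The window 3429 bp beyond the 3′ end of Fam209 (chr2:172477646-172477845) went from 4.35, 1.0 and 4.28 CPM to 64.8, 48.3 and 54.7 CPM. Its other neighbour, 67933 bp away, was Tfap2c, which encodes a transcription factor of the AP-2 family. The window 44441 bp beyond Dlg2, which encodes a membrane scaffold protein (chr7:92493588-92493787), rose from 1.09, 5.0 and 4.28 CPM to 74.1, 54.9 and 59.6 CPM.

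The other four of these rises had log2 fold changes of 3.53 to 3.77 and lay near Trabd2b, a protease that acts on Wnt ligands, Rap1b, a small GTPase of cell adhesion, Prkch, protein kinase C η, and Stim2, a calcium sensor of the endoplasmic reticulum. The window 10684 bp from Trabd2b stood at 4.35, 4.0 and 6.43 CPM in control and 67.9, 59.3 and 68.3 CPM with RANKL. At Rap1b, 21507 bp before the start, the values were 1.09, 7.0 and 4.28 CPM against 43.2, 57.1 and 53.4 CPM. At Prkch, 35293 bp away, they were 3.26, 5.0 and 4.28 CPM against 55.6, 57.1 and 44.7 CPM. At Stim2, 37375 bp beyond the 3′ end, they were 2.17, 6.0 and 6.43 CPM against 49.4, 74.6 and 44.7 CPM. The RANKL values of all 8 windows lay within 43.2 to 74.6 CPM.

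The largest falls, chosen by the same rule and so favouring low values with RANKL, left a small remaining signal. The window 28972 bp before the start of Ambn, an enamel protein gene (chr5:88426920-88427119), fell from 73.9, 73.0 and 60.0 CPM to 3.09, 6.58 and 9.94 CPM (log2 fold change -3.19 ± 0.35, adjusted p = 1.17e-16). It also lay 730 bp from the pseudogene Gm7721. The window 20703 bp from Ccer1 (chr10:97715530-97715729) fell from 62.0, 76.0 and 92.1 CPM to 3.09, 11.0 and 9.94 CPM. Next came a window 2207 bp beyond Fam217b, with 33.7, 49.0 and 40.7 CPM in control and 9.26, 0 and 6.21 CPM with RANKL. The window 2026 bp before the start of Has1, a hyaluronan synthase gene, went from 34.8, 40.0 and 47.1 CPM to 3.09, 8.78 and 3.73 CPM. The window 30696 bp before the start of Dact2, a modulator of Wnt and TGF-β signalling (chr17:14234924-14235123), held 80.5, 54.0 and 60.0 CPM in control and 6.17, 11.0 and 9.94 CPM with RANKL. Its other neighbour, 44467 bp away, was Smoc2, an intestinal stem cell marker. The remaining 3 lay near Bcas1, Xpnpep1 and C1ql2, with log2 fold changes of -2.72 to -2.89. Each of these 8 rises and 8 falls kept its direction and its side of the threshold under every alternative in which it could be fitted.

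**Figure D4:**
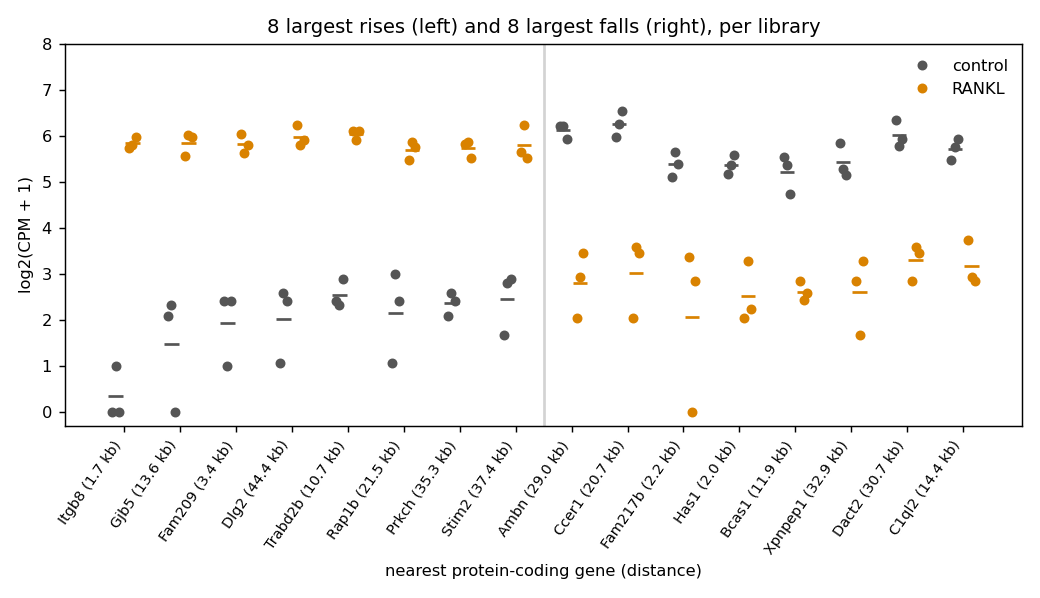
log2(CPM + 1) in each control (grey) and RANKL (orange) library, with bars at group means, for the 8 largest rises (left) and 8 largest falls (right), labelled by nearest gene and distance in kb. The groups are apart at each of the 16 windows, as the rule of choice required, and at the Itgb8 window 2 of the 3 controls are at 0.

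Windows near M cell and NF-kB genes mostly rose where they changed. Of 14 tested intergenic windows whose nearest gene was an M cell marker or regulator, 7 rose (50.0%), 1 fell (7.14%) and 6 did not pass, against 10.0% of all tested windows in each direction. These 14 had a median log2 fold change of 0.58, against 0.00805 over all tested windows. The 51 windows of the list, tested or not, summed to 448 to 518 CPM in control libraries and 719 to 878 CPM with RANKL, and the groups did not overlap. With no filter edgeR called 11 of the 51 higher and 0 lower, where 9.40% of all windows were called in either direction. In 2-kb counts 13 of 47 were called higher and 1 lower, against 8.39% and 10.2% over all 2-kb windows. The window 5444 bp before the start of Marcksl1, an M cell marker (chr4:129508038-129508237), went from 3.26, 1.0 and 2.14 CPM to 43.2, 65.8 and 26.1 CPM (log2 fold change 4.24 ± 0.55, adjusted p = 4.37e-12). The window 1762 bp from Msln, which encodes the surface protein mesothelin, rose from 4.35, 7.0 and 4.28 CPM to 30.9, 43.9 and 48.5 CPM. At Mfge8, 49299 bp before the start, 2 counts over the controls stood against 37 with RANKL, a ratio of 27.9 (exact 95% counting interval 7.19 to 239); with loess offsets the adjusted p was 0.727. The window 16820 bp before the start of Ccl20, the chemokine by which follicle epithelium attracts lymphocytes, rose from 9.79, 13.0 and 4.28 CPM to 27.8, 48.3 and 39.8 CPM.

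The calls near Tnfaip2, Prnp and Atoh8 did not hold when a library was left out, with adjusted p up to 0.245 and 0.23 without RANKL replicate 3 for Tnfaip2 and Atoh8 and 0.154 without RANKL replicate 2 for Prnp. Blocking on the experiment number also ended those at Prnp and Atoh8 (adjusted p = 0.0721 and 0.0806). Without a library, 6 to 12 windows of the M cell list were called higher and 0 to 2 lower.

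Of 18 tested windows near NF-kB and RANK pathway genes, edgeR called 6 higher (33.3%, against 10.0% of all tested windows) and none lower (median log2 fold change of the 18, 0.34). At an unadjusted p under 0.05 the counts were also 6 and 0, and DESeq2 called 4 and 0. A fit with no filter called 7 of 49 higher and 0 lower, where 9.4% of all windows were called in either direction. The 2-kb counts gave 9 of 45 higher and 1 lower, against 8.39% and 10.2% over all 2-kb windows. The largest shift was at Bcl3, a nuclear cofactor of NF-kB. Its window 9416 bp before the start (chr7:19832141-19832340) went from 21.7, 13.0 and 15.0 CPM to 98.8, 96.6 and 113 CPM (log2 fold change 2.63 ± 0.25, adjusted p = 7.15e-23). Windows on both sides of it, 1533 and 14287 bp from the gene, were called higher as well (log2 fold change 0.85 and 1.16), but not without RANKL replicate 2 (adjusted p = 0.111 and 0.238). At Nfkbia, the inhibitor IκBα and itself an NF-kB target, a window 2027 bp beyond the 3′ end rose from 7.61, 7.0 and 10.7 CPM to 49.4, 37.3 and 43.5 CPM. At Traf3, an adaptor that restrains the non-canonical pathway, a window 6515 bp before the start rose from 9.79, 2.0 and 4.28 CPM to 27.8, 32.9 and 27.3 CPM. The gene of the receptor RANK itself, Tnfrsf11a, had a window 17580 bp beyond its 3′ end that rose from 51.1, 47.0 and 27.8 CPM to 80.3, 74.6 and 99.4 CPM (log2 fold change 0.97 ± 0.21, adjusted p = 5.22e-05). Tnfrsf11a is also on the M cell list, so this rise is counted in both lists.

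Near genes of MHC and antigen processing, 4 of 8 tested windows rose (50.0%) and 1 fell (12.5%), against 10.0% in each direction over all tested windows (median log2 fold change of the 8, 1.04). Without the filter 4 of 15 were called higher and 1 lower, where 9.4% of all windows were called in either direction. In 2-kb counts 2 of 13 were called higher and 1 lower, against 8.39% and 10.2% over all 2-kb windows. Both signs occurred at Ctsh, a lysosomal cathepsin: the window 6037 bp away fell from 29.4, 29.0 and 42.8 CPM to 3.09, 8.78 and 12.4 CPM, and that 13153 bp away went from 3.26, 2.0 and 10.7 CPM to 21.6, 26.3 and 19.9 CPM. The latter lost its call without control replicate 2 (adjusted p = 0.0692). The window 2574 bp from Tap2, a peptide transporter for MHC class I, rose from 14.1, 16.0 and 6.43 CPM to 43.2, 32.9 and 39.8 CPM. The other two calls, near H2-Q1 and H2-Eb1, were lost without RANKL replicate 2 (adjusted p = 0.0781) and control replicate 2 (0.0908) respectively, and that near H2-Eb1 also with the replicate block (0.0523).

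Among tested windows near stem cell and secretory genes, those that changed mostly fell. Of 23 tested near crypt stem cell and Wnt target genes, edgeR called none higher and 5 lower (21.7%), against 10.0% in each direction over all tested windows and 12.5% lower among intergenic ones. Their median log2 fold change was -0.32, with 0 higher and 8 lower at an unadjusted p under 0.05. DESeq2 called 0 and 2, and fits without a library called 0 to 3 higher and 3 to 6 lower. A fit with no filter called 3 of 62 higher and 4 lower, where 9.4% of all windows were called in either direction. In 2-kb counts 4 of 56 were called higher and 14 lower, against 8.39% and 10.2% over all 2-kb windows. The 62 windows of this list summed to 947 to 1080 CPM in control and 821 to 840 CPM with RANKL. The window 47846 bp from Sox9, a transcription factor of the crypt base (chr11:112835504-112835703), fell from 65.2, 39.0 and 47.1 CPM to 0, 13.2 and 13.7 CPM (log2 fold change -2.24 ± 0.37, adjusted p = 6.56e-08). At the stem cell marker Olfm4, a window 13258 bp before the start fell from 38.1, 47.0 and 34.3 CPM to 12.3, 21.9 and 18.6 CPM, a call that was lost without control replicate 2 (adjusted p = 0.0688). A window 16638 bp from Aqp4 also fell, whereas the calls near Lrig1 and Cdk6 did not hold without RANKL replicate 3 and RANKL replicate 2 respectively (adjusted p = 0.38 and 0.348).

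Goblet and secretory genes had 29 tested windows, of which 7 fell (24.1%), 1 rose (3.45%) and 21 did not pass, where 10.0% of all tested windows were called in each direction (median log2 fold change -0.38). Their 41 windows summed to 968 to 1060 CPM in control and 652 to 781 CPM with RANKL. Bcas1, a gene of goblet cells, had a window 11870 bp away that fell from 45.7, 40.0 and 25.7 CPM to 6.17, 4.39 and 4.97 CPM and another, 19149 bp away, that fell from 39.1, 44.0 and 47.1 CPM to 18.5, 11.0 and 16.2 CPM. Retnlb, which encodes a goblet cell protein released into the lumen, had a window that fell from 44.6, 33.0 and 49.3 CPM to 12.3, 6.58 and 14.9 CPM. Atoh1, the transcription factor that commits cells to the secretory lineage, had falls on both sides: 32838 bp beyond its 3′ end, from 66.3, 63.0 and 40.7 CPM to 15.4, 24.1 and 28.6 CPM, and 1187 bp before its start, from 56.5, 45.0 and 83.5 CPM to 34.0, 26.3 and 29.8 CPM. The falls near Spdef and Klf4 and the rise near Tff3 were lost without RANKL replicate 3 (adjusted p = 0.0691), RANKL replicate 2 (0.148) and RANKL replicate 1 (0.115) respectively.

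Tuft cell genes had 11 tested windows, with 3 lower (27.3%) and 1 higher (9.09%), against 10.0% of all tested windows in each direction (median log2 fold change of the 11, -0.37). DESeq2 called 0 higher and 2 lower, and fits without a library called 0 to 2 higher and 1 to 4 lower. With no filter 3 of 21 were called higher and 3 lower, where 9.4% of all windows were called in either direction. In 2-kb counts 2 of 21 were called higher and 5 lower, against 8.39% and 10.2% over all 2-kb windows. The window 21080 bp beyond the 3′ end of Rgs13, a regulator of G-protein signalling found in tuft cells, fell from 71.8, 60.0 and 57.8 CPM to 9.26, 6.58 and 18.6 CPM (log2 fold change -2.27 ± 0.32, adjusted p = 1.85e-10). The fall at Sucnr1, the succinate receptor, was lost without RANKL replicate 3 (adjusted p = 0.0797), and that at Hpgds without control replicate 2 (0.146). The rise at Sh2d6, 1028 bp from the gene, ended with the replicate block (adjusted p = 0.104) and without RANKL replicate 3 (0.491). In the Paneth cell list edgeR and DESeq2 called none of 3 tested windows, and 1 had an unadjusted p under 0.05.

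Near enterocyte genes 1 of 20 tested windows rose (5.0%) and 2 fell (10.0%), near the 10.0% of all tested windows called in each direction (median log2 fold change of the 20, -0.28). The window 2090 bp beyond Anpep, a brush border peptidase, rose from 2.17, 3.0 and 0 CPM to 24.7, 26.3 and 26.1 CPM, with an adjusted p of 0.288 under loess offsets. A window 8931 bp before the start of Sis, the disaccharidase sucrase-isomaltase, fell from 73.9, 67.0 and 77.1 CPM to 34.0, 52.7 and 38.5 CPM, and was not called without RANKL replicate 3 (adjusted p = 0.0816). The other fall, 29826 bp from Sis, was lost with the replicate block (adjusted p = 0.0555) and without control replicate 1 (0.129). Of 43 tested windows near intestinal transcription factor genes, 3 rose (6.98%) and 5 fell (11.6%), which is close to the 10.0% over all tested windows. The fall 27627 bp beyond the 3′ end of Isx, an intestinal homeobox factor, was lost with the replicate block (adjusted p = 0.0871) and without RANKL replicate 3 (0.314). The window 19746 bp beyond the 3′ end of Onecut1, which encodes HNF6, rose from 16.3, 12.0 and 12.9 CPM to 80.3, 50.5 and 72.1 CPM. That 38677 bp before the start of Sox4 fell from 60.9, 49.0 and 57.8 CPM to 15.4, 28.5 and 16.2 CPM. Foxa2 had calls of both signs. The window 33572 bp before its start rose from 3.26, 1.0 and 2.14 CPM to 21.6, 17.6 and 26.1 CPM, with an adjusted p of 0.389 under loess offsets. That 37819 bp beyond its 3′ end fell, a call lost without control replicate 2 (adjusted p = 0.11). The fall near Klf4, given above, is counted in this list as well. The window 4354 bp from Hnf4g, an enterocyte nuclear receptor, fell from 87.0, 95.0 and 111 CPM to 43.2, 35.1 and 64.6 CPM. The window 1673 bp beyond its paralog Hnf4a was called higher (log2 fold change 0.98), but not without RANKL replicate 2 (adjusted p = 0.101).

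Among 25 tested windows near AP-1 and Ets factor genes, edgeR called none higher and 1 lower, near Bach1, with 0 and 3 at an unadjusted p under 0.05, against 10.0% of all tested windows called in each direction. DESeq2 likewise called 0 and 1. Fetal-like and YAP target genes had 2 rises and 2 falls in 19 tested windows. Each share was 10.5%, close to the 10.0% over all tested windows. The window 13268 bp before the start of Ankrd1, a target of YAP, rose from 7.61, 5.0 and 0 CPM to 34.0, 41.7 and 39.8 CPM. The other rise was that near Msln, given above and counted in this list as well. The window 21083 bp before the start of Cnn3 fell (log2 fold change -1.52 ± 0.38, edgeR adjusted p = 0.0011). The fall 12444 bp beyond the 3′ end of Ccn1 was lost without RANKL replicate 2 (adjusted p = 0.279). Of the remaining lists given here, mesenchymal markers had 1 of 4 tested windows higher (near Pdgfrb, adjusted p = 0.204 with loess offsets), neural and glial markers 1 higher and 1 lower of 4, and epithelial identity genes 1 higher and 1 lower of 17. The calls near Syt1, Snap25, Esrp1 and Krt18 failed without RANKL replicate 1 (adjusted p = 0.113), control replicate 3 (0.155), control replicate 1 (0.0894) and RANKL replicate 3 (0.264) respectively, and that at Krt18 also with the replicate block (adjusted p = 0.0713).

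**Figure D5:**
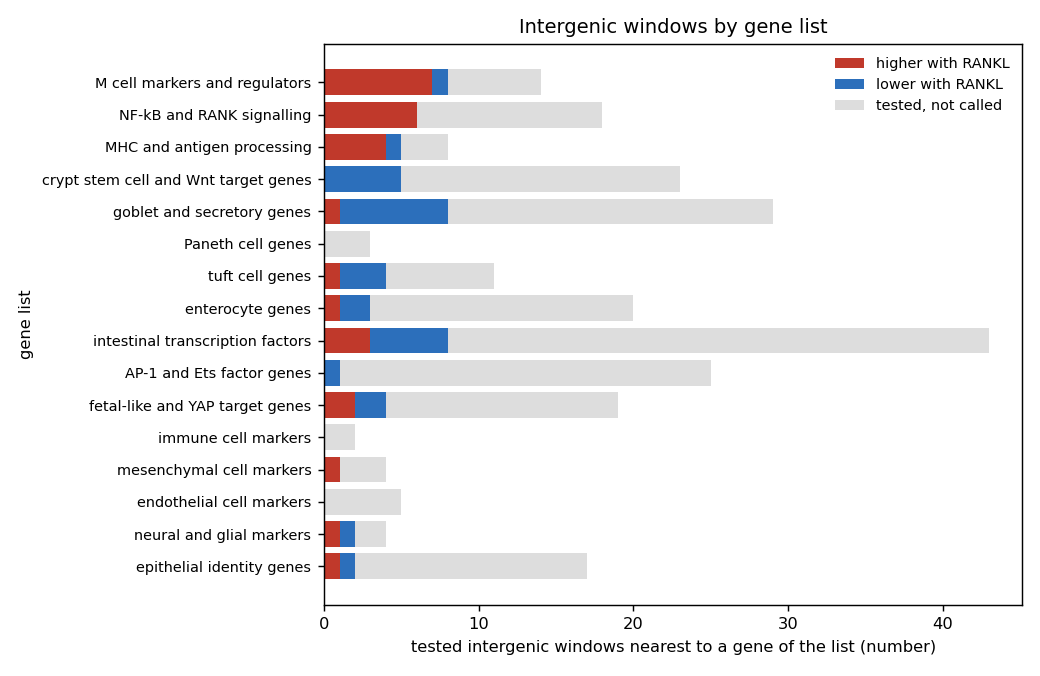
Number of tested intergenic windows nearest to a gene of each list (horizontal axis), split into those called higher (red), lower (blue) and not called (grey) with RANKL. Red is longest for the M cell list, with 7 of 14 windows, and blue for the goblet and secretory list, with 7 of 29.

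Called windows between the same pair of genes did not always move together. The intergenic windows lay in 6902 gaps between neighbouring protein-coding genes. In 828 gaps 1 window was called and in 72 gaps 2 or more were, of which 22 held only rises, 29 only falls and 21 both. The gap between Zc3h15 and Itgav, the gene of integrin αv, held 2 rises. The window 26058 bp beyond Zc3h15 (chr2:83690576-83690775) went from 3.26, 1.0 and 2.14 CPM to 34.0, 46.1 and 50.9 CPM (adjusted p = 2.89e-13). The window 21456 bp before the start of Itgav (chr2:83700748-83700947) went from 8.70, 2.0 and 8.57 CPM to 40.1, 50.5 and 69.6 CPM (adjusted p = 3.36e-13). Itgav and Itgb8, whose products pair as the αvβ8 integrin, each had an intergenic window before the start that rose.

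Between Egln3, a prolyl hydroxylase that marks HIF for destruction, and Sptssa, a subunit of the first enzyme of sphingolipid synthesis, 3 of 4 tested windows rose. The strongest, 36280 bp beyond Sptssa, went from 8.70, 7.0 and 17.1 CPM to 52.5, 65.8 and 46.0 CPM. The window 48405 bp from Egln3 was lost in 5 of the 6 fits that left out a library (adjusted p up to 0.0846, without RANKL replicate 3), and that 23285 bp from Sptssa without control replicate 2 (adjusted p = 0.0568). Between Bhlhe40, a transcriptional repressor, and Arl8b, 2 of 5 tested windows rose. The one 21542 bp from Bhlhe40 went from 4.35, 0 and 4.28 CPM to 43.2, 50.5 and 42.2 CPM. The other, 4967 bp from Arl8b, had an adjusted p of 0.053 without control replicate 3 and 0.0728 without RANKL replicate 1. Between Dut and Fbn1 both tested windows rose. The one 15208 bp from Dut had 1 count over the controls and 51 with RANKL, a ratio of 76.8 (exact 95% counting interval 13.2 to 3090), with an adjusted p of 0.224 under loess offsets. The second, 19623 bp from Dut, did not pass the filter on low counts without RANKL replicate 3.

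Among the gaps with most falls, that between Abca12, a lipid transporter, and Atic, a purine synthesis enzyme, had 3 of 4 tested windows lower. The window 17662 bp before the start of Abca12 fell from 64.2, 72.0 and 66.4 CPM to 12.3, 35.1 and 33.5 CPM. The window 25318 bp before the start of Atic lost its call with the replicate block (adjusted p = 0.0662) and without RANKL replicate 2 (0.0953). Without control replicate 1, and again without control replicate 2, only the window 17662 bp from Abca12 was called, because that window near Atic and the third, 7034 bp from Abca12, did not pass the filter on low counts. Between Colec10 and Mal2, which encodes a protein of transcytosis, the window 36985 bp from Mal2 fell from 88.1, 63.0 and 98.5 CPM to 27.8, 21.9 and 19.9 CPM (adjusted p = 1.01e-10). Between Atp13a3 and Tmem44 the window 39310 bp beyond Tmem44 fell from 40.2, 26.0 and 40.7 CPM to 6.17, 0 and 3.73 CPM. The second fall of each of those gaps did not hold throughout: that 30375 bp from Colec10 was lost without control replicate 3, RANKL replicate 1 or RANKL replicate 2 (adjusted p up to 0.1245), and that 8655 bp from Atp13a3 with the replicate block (0.0804) and without control replicate 1, control replicate 2, RANKL replicate 2 or RANKL replicate 3 (up to 0.1404). None of the 3 falls between Phlda1 and Krr1 held in all 6 fits that left out a library (adjusted p up to 0.0899, 0.103 and 0.215, without RANKL replicate 2, control replicate 1 and RANKL replicate 2), and DESeq2 called none of them. That 21970 bp from Phlda1 was also lost with the replicate block (adjusted p = 0.0640).

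Counts were also summed per nearest gene. Of 3874 genes whose intergenic sum was tested, 321 sums rose (8.29%) and 495 fell (12.8%), against 6.43% and 7.40% over all 16557 sums per gene and location. For 1874 genes both the intergenic sum and the sum within 1 kb of the gene's ends were tested. Over all 1874 the gene-end sum was called higher at 87 (4.64%), lower at 82 (4.38%) and not called at 1705 (91.0%). Where the intergenic sum was called higher (134 genes), the gene-end sum was called higher at 13 (9.70%), lower at 2 and not called at 119 (88.8%). Where it was called lower (241 genes), the gene-end sum was called lower at 25 (10.4%), higher at 3 and not called at 213 (88.4%). The shares not called thus lay close to that over all genes. Gene-end calls in the same direction had larger shares than over all genes (9.70% against 4.64% higher, 10.4% against 4.38% lower). Those in the opposite direction had smaller ones (1.49% against 4.38% lower, 1.24% against 4.64% higher). No difference between these groups of genes was tested. The log2 fold changes of the 2 sums had a Pearson correlation of 0.16 across the 1874 genes, which share libraries and are not independent replicates. The difference itself was tested with limma on the log2 ratio of intergenic to gene-end CPM, each plus 2 CPM. It was called positive for 64 genes (3.42%) and negative for 81 (4.32%), with 406 at an unadjusted p under 0.05. Without control replicate 1, 2 or 3 the counts were 41 and 16, 35 and 20, and 37 and 27.

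Values here are CPM of all counts summed by gene. At Dlg2 the intergenic sum rose from 1.36, 6.26 and 5.41 CPM to 90.4, 66.3 and 71.4 CPM, while its gene-end sum stood at 108, 100 and 127 CPM and at 121, 92.8 and 84.8 CPM (log2 ratio change 3.89 ± 0.44 SE, limma adjusted p = 1.63e-05). Pik3ca, which encodes the catalytic subunit p110α of PI3-kinase, had an intergenic sum of 1.36, 1.25 and 5.41 CPM against 37.7, 50.4 and 52.1 CPM, with 85.7, 93.9 and 116 CPM against 86.6, 68.9 and 101 CPM at its ends. At Frk, a Src-related kinase gene, the ends fell (log2 fold change -0.76, adjusted p = 0.00677) while the intergenic sum rose (3.97, adjusted p = 5.81e-05). Zfp560 and Slc26a7 also had a positive ratio change, the latter lost without any 1 of 5 libraries (adjusted p up to 0.107, without control replicate 2). In the other direction, Sucla2, a subunit of a citric acid cycle enzyme, had an intergenic sum that fell from 38.1, 43.8 and 56.8 CPM to 7.53, 0 and 2.98 CPM, and its ends stood at 36.7, 33.8 and 29.8 CPM and 49.0, 26.5 and 47.6 CPM. At Mmp27, a metalloproteinase gene, it was the gene-end sum that rose (log2 fold change 3.18 ± 0.68, adjusted p = 0.000197), with an intergenic change of -0.18. The negative calls at Brd7, Arl4c and Atp5g2 failed without control replicate 2 (adjusted p = 0.0642), control replicate 1 (0.157) and control replicate 3 (0.0765) respectively.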

How the data were processed

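Raw counts of reads over 55056 windows, each 200 bp wide with centres 4003 bp or more apart, were deposited by the authors. For 55050 of the same centres they also deposited a score over 2 kb, with mean 0 and SD 1 in each library. From the values, that score is the centred and scaled natural log of a count plus 1, and undoing it gave counts no more than 0.0058 from whole numbers. Tools listed in the submitters' processing notes, without roles, were BWA 0.7.17, MACS2 2.2.7, fastp 0.20.1, DESeq2 1.34.0 and Picard, with builds mm10 and GRCm38. How windows were chosen, and how Tn5 offsets and duplicate reads were treated, is not given in the sources used here. Totals of 322173 to 976881 counts per library limit the precision, and intervals cover counting error only.

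Windows were placed against 21792 protein-coding genes of a RefSeq table (GRCm38.p6), after dropping 108 genes with scaffold positions. The build was checked by moving every window by 1 Mb, which took the share near gene ends (within 1 kb) from 18.7% to 3.76%. All windows were fitted together in edgeR 4.0.16 under R 4.3.3 (filterByExpr, TMM, robust quasi-likelihood, threshold 0.05), gene sums likewise, and ratios in limma 3.58.1; DESeq2 1.42.0 was an alternative. Scripts were tested on simulated data. Summaries used Python 3.11.15 and pandas 2.3.3. The members, the 17 gene lists (394 of 398 symbols matched) and the tests were chosen with earlier results of these data known. The result of 1 list is not reported here. Named windows are the 8 largest rises and falls among called windows of at least median strength with groups apart, up to 3 calls per list with the smallest adjusted p, the 4 gaps with most calls in each direction and the 5 largest ratio changes in each direction, without predicted genes and olfactory or vomeronasal receptors; further list genes, the promoters and Tfap2c and Smoc2 were chosen after their values were seen.

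Per the labels, the number of an experiment is shared by a RANKL and a control library. Deviations of same-numbered libraries from their group means had correlations of -0.0342, 0.0146 and -0.0131, so the windows show no shared deviation, and the main fits have no block.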

Additional observations from a re-analysis of the deposited data

How the results depend on the processing

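Of the 439 and 541 intergenic windows called higher and lower, thinning all libraries to the smallest total left 90 and 159, 2-kb counts gave 992 and 1087, and a limit of 20 kb in place of 50 kb, with fewer windows, gave 276 and 315. No filter gave 720 higher, 2-kb counts with loess offsets, chosen after seeing the data, gave 749 higher, and DESeq2 gave 261 lower; the cause of the last was not tested. Leaving out each library in turn gave 287 (without RANKL replicate 3) to 619 higher and 354 (without control replicate 1; 359 without RANKL replicate 3) to 593 lower. The share of all calls among intergenic windows exceeded that over all windows under each normalization and in each of these fits, but not with no filter (9.16% against 9.40%), 2-kb counts (17.3% against 18.5%) or 2-kb counts with loess offsets (13.0% against 13.5%). The difference of -0.994 points in the share of reads was 0.271 in 2-kb counts and -0.462 up to 20 kb, and -1.32 to -0.676 without a library. For sums per gene (321 and 495), DESeq2 gave 209 and 210, thinning gave 98 and 189, and leaving out a library gave 219 to 383 higher and 292 (without control replicate 1) to 469 lower. For the ratio of intergenic to gene-end sums (64 and 81), leaving out a library gave 35 to 60 and 16 to 81. With the experiment number as a replicate block, the counts were 383 and 446 for windows, 266 and 381 for sums and 70 and 98 for ratios, and the block ended the window calls given near Prnp, Atoh8, H2-Eb1, Sh2d6, Sis (29826 bp), Isx, Krt18, Atic, Phlda1 (21970 bp) and Atp13a3, and no other among the called list windows and those chosen by the naming rule. Windows not called that changed sign were those 1461 bp from Bhlhe40 (log2 fold change 0.0032 with the block, -0.30 to 0.11 without a library), 38008 bp from Bhlhe40 (-0.40 to 0.24 without a library, 0.18 in 2-kb counts with loess offsets), 43116 bp from Bhlhe40 (0.059 in the latter) and 6208 bp from Atic (-0.24 to 0.53 without a library, -0.13 in 2-kb counts, -0.14 with loess offsets added). Depth limits the weaker windows: 3 counts are worth 9.26 CPM in the shallowest library, close to the median intergenic window.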
